A study of Mus musculus with 9 samples.

Results

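The genes described here are 10 members of the interleukin-6 (IL-6) signalling family: the cytokines Il6 and Lif, the receptor chains Il6ra, Osmr, Lifr and Il6st, the transcription factor Stat3, and the inhibitors Socs1, Socs2 and Socs3. They were taken by gene symbol, as every probe set whose single symbol in the array's annotation is a member, which gave 10 of 18193 genes and 29 probe sets. Total RNA was measured on 9 one-colour Affymetrix arrays, 3 for each of 3 groups. All groups derive from BC3H1, a mouse brain tumour line with muscle-like properties, grown in medium with 20% serum. The sensitive parental cells (RS) received the solvent DMSO for 24 h or 100 nM rapamycin, an inhibitor of mTOR complex 1, for 24 h. The resistant line (RR1) came from 6 months of culture in 1 uM rapamycin and was kept in 1 uM rapamycin. No resistant cells without the drug and no second resistant line were analysed here. Line, months of selection and presence of drug therefore cannot be told apart in the resistant group, and the 2 rapamycin groups also differ in dose and time. Nothing in the labels tells whether replicate arrays are separate cultures; the p-values then cover the spread from array to array, part or all of which may be technical.

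Cytokines of the IL-6 family signal through receptors that share the chain gp130, the product of Il6st. IL-6 binds its own receptor, encoded by Il6ra, and then pairs gp130 chains. Leukaemia inhibitory factor, the product of Lif, joins gp130 to the LIF receptor, and oncostatin M joins it to the receptor chain encoded by Osmr. JAK kinases bound to these receptors phosphorylate STAT3, which enters the nucleus and induces genes that include Socs3. The SOCS3 protein then binds gp130 and JAK and shuts the signal off, SOCS1 acts directly on JAK kinases, and SOCS2 is best known as a brake on the growth hormone receptor. The arrays measure RNA, so phosphorylation of STAT3 was not seen.

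A promoter window was found in the RefSeq tables (mouse build GRCm38.p6) for 9 of the 10 genes, 10 windows in all because Lifr has a pair of starts. Each window holds 250 bases before and 50 after the annotated start, and it was searched on both strands for TTCNNNGAA (STAT), GGNNTTNCC (NF-kappaB) and TGANTCA (AP-1), where N is any base. The windows of Socs3 and Il6 are shown because these genes had the largest falls in the resistant line against DMSO cells, and because each holds a match to the motif of a factor known to act on it. In Socs3 (chr11:117969317-117969616, minus strand) the capitals mark the STAT motif TTCTTAGAA, which begins 154 bases before the start. In Il6 (chr5:30012864-30013163, plus strand) they mark the NF-kappaB motif GGATTTTCC, 43 bases before the start.
Socs3: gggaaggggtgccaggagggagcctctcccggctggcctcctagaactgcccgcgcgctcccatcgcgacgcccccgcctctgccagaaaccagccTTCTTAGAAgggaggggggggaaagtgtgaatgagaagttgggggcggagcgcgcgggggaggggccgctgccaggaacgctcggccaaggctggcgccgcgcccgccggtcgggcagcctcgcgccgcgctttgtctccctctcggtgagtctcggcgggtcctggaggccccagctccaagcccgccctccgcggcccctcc
Il6: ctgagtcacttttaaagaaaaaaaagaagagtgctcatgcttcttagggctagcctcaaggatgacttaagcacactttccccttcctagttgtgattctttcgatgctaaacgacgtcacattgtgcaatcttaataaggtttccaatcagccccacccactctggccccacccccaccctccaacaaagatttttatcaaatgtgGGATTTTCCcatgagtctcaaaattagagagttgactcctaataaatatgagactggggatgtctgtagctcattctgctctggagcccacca
The STAT motif was found in 1 of the 10 windows and in 8.3% of 32851 mouse promoter windows of the same length, and the NF-kappaB motif in 2 of 10, those of Il6 and Lif, and in 16%. The AP-1 motif was present in 3 of 10, those of Il6, Lif and Osmr, against 7.81% of all windows. A match describes letters and does not show that a factor binds there.

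Of the 9 arrays, the third of the DMSO group differed from the rest: its median signal was 66.0, that of the other 8 from 33.3 to 44.2, so values of the members that change most without it are given both ways. On the resistant arrays Actb, whose signal at the 3′ end over that at the 5′ end is a sign of RNA quality, gave a log2 ratio of 0.33 ± 0.016 (SD, n = 3), against 0.17 ± 0.0078 in DMSO cells and 0.19 ± 0.042 in sensitive cells with rapamycin. The same ratio for Gapdh was -0.29 ± 0.040 on the resistant arrays, -0.31 ± 0.016 in DMSO cells and -0.36 ± 0.040 in sensitive cells with rapamycin. Markers of smooth muscle also moved with the resistant line: the summed signal of 7 genes was 23251 to 31241 in DMSO cells, 28310 to 28785 in sensitive cells with rapamycin and 7904 to 9685 in resistant cells. Of the skeletal muscle markers 6 of 7 were above the filter, and Myod1 was below it. All 6 differed between resistant and DMSO cells, 3 higher and 3 lower, where 51.8% of all genes were called in either direction. Their log2 changes ran from -4.22 (Chrna1) to 3.49 (Tnnt1). Summed, the 7 gave 1770 to 1977 in DMSO cells, 1692 to 1929 with rapamycin and 1296 to 1368 in resistant cells. The sum includes Des, which is also among the 7 smooth muscle genes and had means of 960, 1123 and 656 in the 3 groups. Of 8 leukocyte markers 5 were above the filter, with summed signals of 811 to 1270, 705 to 741 and 333 to 428 in the 3 groups, while Ptprc, Itgam and Cd3e were below it. Between resistant and DMSO cells 1 of the 5 was called, 20.0% beside 51.8% of all genes. It was Cd14, with means of 607, 425 and 145 in the 3 groups. Csf1r had means of 155, 107 and 146, and Cd68 of 28.2, 35.1 and 30.9. Of the endothelial markers 1 of 5 was above the filter. Astrocyte and neuron markers, 5 of 6 above the filter, had summed signals of 167 to 534, 258 to 313 and 239 to 346. Slc1a3 was called higher in resistant than in DMSO cells (1.02 ± 0.22, limma adjusted p = 0.000691). The other 4 were not called, so that calls covered 20.0% of the 5, beside 51.8% of all genes. No marker had a mean of 0 in any group. The part of these features in the results was not tested.

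In sensitive cells, 24 h of rapamycin raised the transcripts of the receptor chains Osmr, Il6st and Lifr, of Stat3 and of Socs2. In the resistant line, Osmr, Il6st, Stat3, Socs2, Socs3 and Il6 were lower than in DMSO cells, and Lifr was higher. Signals were compared as log2(signal + 16), a scale that understates the change of dim genes, with 1 probe set a gene (the brightest) in a limma fit over 12715 genes above a filter on dim probe sets, which all 10 members passed. Calls needed a p under 0.05 after Benjamini-Hochberg adjustment over these genes. Rapamycin raised 5 of 10 members and lowered 0 (unadjusted p under 0.05 for a lower value: 0), where 20.4% of all genes were called higher and 15.2% lower. In the resistant line against DMSO cells 1 was called higher and 6 lower, where 25.9% of genes were higher and 25.8% lower. Against sensitive cells with rapamycin 1 was higher and 6 were lower, where 26.4% and 30.1% of genes were. The median log2 change of the 10 genes was 0.40, -0.63 and -1.03 in these 3 comparisons, and that of all genes tested 0.03, -0.07 and -0.08. The comparisons share arrays, so they are not independent of each other. Centring the arrays on their 75th percentile moved the median of all genes in the last comparison from -0.08 to 0.05, with the same numbers of members called in each direction. Without the third DMSO array the members' median with rapamycin was 0.62, with 6 called higher. When probe sets of a gene were averaged, the median in the resistant line against DMSO cells was -0.31, with 1 called higher and 4 lower.

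**Figure D1:**
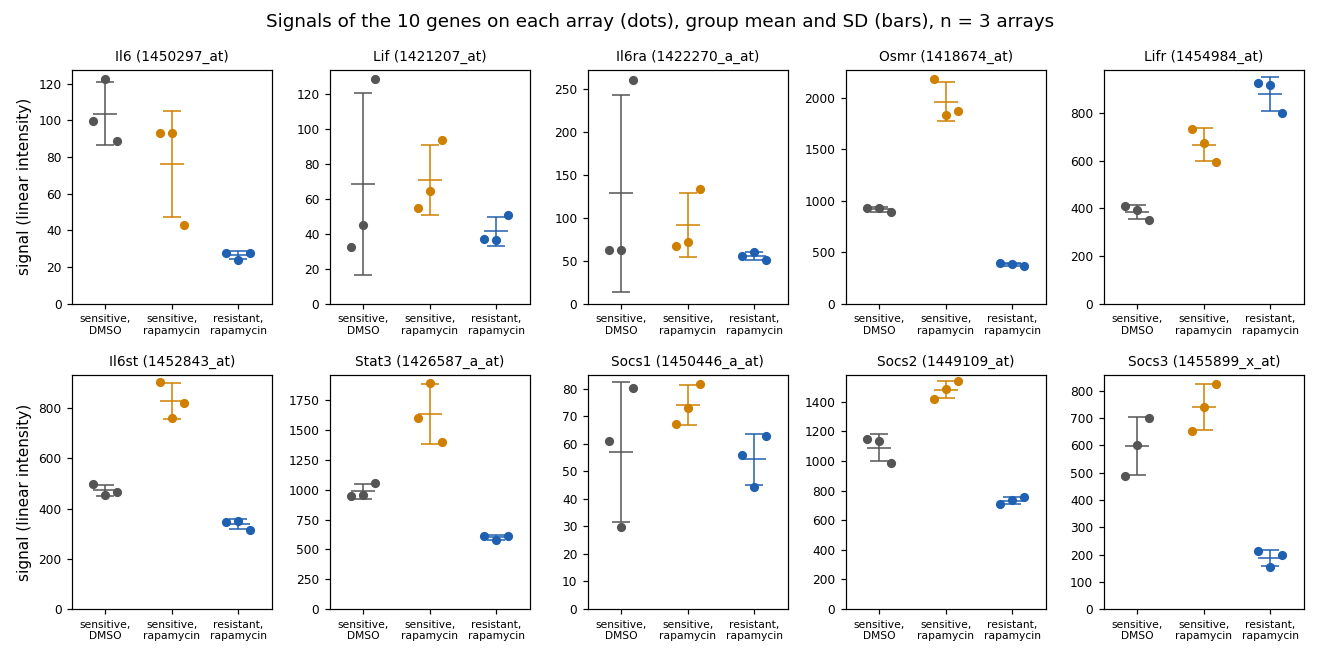
Signal (linear intensity, vertical axis from 0) of the brightest probe set of each of the 10 genes on every array, by group; dots are arrays and bars are mean and SD of 3 arrays. Osmr, Il6st, Stat3 and Socs2 are highest in sensitive cells with rapamycin and lowest in the resistant line, Lifr is highest in the resistant line, and the third DMSO array lies far above the other 2 for Lif and Il6ra.

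Among the ligands, Il6, the founding cytokine of the family, gave signals of 99.7, 123 and 88.8 on the DMSO arrays, 93.1, 92.9 and 42.8 in sensitive cells with rapamycin, and 27.8, 24.1 and 27.9 in resistant cells. The resistant arrays lay below all others, while the sensitive groups overlapped. Il6 was lower in the resistant line than in DMSO cells, with a log2 change of -1.48 ± 0.30 (SE, limma adjusted p = 0.000435), and changed by -1.06 ± 0.30 against sensitive cells with rapamycin (limma adjusted p = 0.0055). In sensitive cells with rapamycin the change was -0.42 ± 0.30 (limma adjusted p = 0.308), and -0.13 without the third rapamycin array, which held the value of 42.8 (adjusted p = 0.804). The resistant signals were close to the filter limit of 22.2, where the added 16 limits the change, and with 64 added instead the changes were -0.88 and -0.61.

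Lif, which keeps mouse stem cells undifferentiated, was dim. Its brighter probe set gave 32.6, 45.3 and 129 on the DMSO arrays, 54.8, 64.7 and 93.6 in sensitive cells with rapamycin and 37.0, 36.5 and 51.1 in resistant cells. The highest value was on the third DMSO array, and the DMSO range spanned both other groups. No comparison called Lif (limma adjusted p = 0.752, 0.392 and 0.2). Without the third DMSO array the change with rapamycin was 0.65 in place of 0.18 (adjusted p = 0.105), and that of the resistant line against DMSO cells was 0.07 in place of -0.40 (adjusted p = 0.878). A dimmer Lif probe set, with signals of 1.97 to 30.8, was below the filter and was not tested.

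Among the receptor chains, Osmr, which pairs with gp130 to bind oncostatin M, gave 930, 935 and 892 on the DMSO arrays, 2183, 1836 and 1869 with rapamycin and 396, 385 and 368 in the resistant line. The 3 groups did not overlap, and their order was sensitive with rapamycin, DMSO, resistant. Rapamycin raised Osmr 2.11-fold in sensitive cells (log2 change 1.08 ± 0.08, limma adjusted p = 1.51e-08). The resistant line was below DMSO cells by a log2 change of -1.23 ± 0.08 (adjusted p = 1.19e-09) and below sensitive cells with rapamycin by -2.31 ± 0.08, a 4.95-fold difference (adjusted p = 1.62e-13). The probe set 1418675_at followed the same order, with group means of 234 ± 7.88 (SD, n = 3), 404 ± 38.1 and 72.6 ± 14.3. The remaining Osmr probe set, 1459217_at, was dim, at 11.3 to 87.5, and was called in no comparison. Without the third DMSO array, which held the 87.5, its change with rapamycin was 0.93 in place of 0.36 (limma adjusted p over all probe sets = 0.0542). That of the resistant line against DMSO cells was 0.78 in place of 0.21 (adjusted p = 0.0812), so it was still not called.

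Lifr, the partner of gp130 for LIF and a relative of Osmr, took another course. Its signals were 410, 393 and 351 in DMSO cells, 731, 674 and 596 with rapamycin and 925, 918 and 798 in the resistant line, so that the resistant arrays lay above all others. Rapamycin raised it 1.70-fold in sensitive cells (log2 change 0.77 ± 0.10, limma adjusted p = 9.71e-06). It was higher in the resistant line than in DMSO cells by 1.16 ± 0.10 (adjusted p = 2.79e-08) and higher than in sensitive cells with rapamycin by 0.39 ± 0.10 (adjusted p = 0.00244). All 3 Lifr probe sets were called higher in the resistant line in both comparisons, the others at 0.99 ± 0.22 and 1.38 ± 0.38 against DMSO cells. With rapamycin in sensitive cells the dimmer probe sets gave 0.13 ± 0.22 and 0.25 ± 0.38 and were not called. When the gene's probe sets were averaged, the rise in sensitive cells was 0.38 (adjusted p = 0.0442), and the difference between the rapamycin groups was 0.80.

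Il6st, the shared chain gp130, gave 497, 455 and 466 in DMSO cells, 903, 762 and 819 with rapamycin and 346, 351 and 315 in the resistant line, with no overlap between groups. It rose by 0.79 ± 0.09 with rapamycin (limma adjusted p = 4.03e-06), and the resistant line differed by -0.47 ± 0.09 from DMSO cells (adjusted p = 0.00044) and by -1.25 ± 0.09 from sensitive cells with rapamycin (adjusted p = 2.65e-09). All 4 Il6st probe sets were called higher with rapamycin, by 0.55 to 1.20. They disagreed for the resistant line against DMSO cells: 2 were called lower, at -0.47 and -0.68, 1 was not called, at -0.29, and 1437303_at was called higher, at 0.54 ± 0.15 (adjusted p over all probe sets = 0.00601). Without the third DMSO array 1421239_at was called lower there, at -0.51 (adjusted p = 0.018), and the rise of 1460295_s_at with rapamycin was no longer called, at 0.47 (adjusted p = 0.0525). When the probe sets were averaged, that difference was -0.22 and the call ended (adjusted p = 0.114).

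Il6ra, the chain that binds IL-6 itself, had probe sets that differed. The brighter gave 62.3, 62.9 and 261 in DMSO cells, 67.7, 72.3 and 134 with rapamycin and 55.3, 60.5 and 50.8 in the resistant line, and it was called in no comparison (limma adjusted p = 0.731, 0.126 and 0.27). The value of 261 is from the third DMSO array. Without that array the change with rapamycin was 0.40 in place of -0.21 and that of the resistant line -0.14 in place of -0.74 (adjusted p = 0.292 and 0.718), whereas leaving out the first or the second DMSO array gave -1.05 and -1.04 for the resistant line, with an adjusted p of 0.0422 and 0.0464. The probe set 1452416_at gave 51.4, 68.1 and 20.0 in DMSO cells, 92.0, 86.5 and 68.3 with rapamycin, and 9.98, 7.31 and 3.43 in the resistant line. The resistant arrays were below all others on it, with log2 changes of -1.37 ± 0.37 against DMSO cells and -2.10 ± 0.37 against sensitive cells with rapamycin (adjusted p over all probe sets = 0.00623 and 0.000131). Without the third DMSO array the change of 1452416_at in the resistant line against DMSO cells was -1.73 (adjusted p = 0.000296), and its change with rapamycin in sensitive cells, which was not called, was 0.38 in place of 0.73. When both probe sets were averaged, Il6ra was called lower in the resistant line, at -1.06 and -1.32 (adjusted p = 0.00207 and 0.00026). That mean includes the floor values of 1452416_at.

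Stat3, the transcription factor downstream of gp130, gave 944, 957 and 1060 in DMSO cells, 1604, 1896 and 1398 with rapamycin and 612, 578 and 616 in the resistant line. The groups did not overlap and stood in the same order as for Osmr. Stat3 rose 1.63-fold with rapamycin (log2 change 0.71 ± 0.10, limma adjusted p = 1.74e-05). The resistant line changed by -0.70 ± 0.10 against DMSO cells (adjusted p = 9.57e-06) and by -1.41 ± 0.10 against sensitive cells with rapamycin (adjusted p = 8.24e-10). The probe set 1460700_at, next in brightness, gave 0.60 ± 0.09, -0.57 ± 0.09 and -1.17 ± 0.09, each called. The remaining probe sets, at signals of 4.50 to 113, were called in no comparison. When all 4 probe sets were averaged, the changes were 0.45, -0.18 and -0.63, and the difference between resistant and DMSO cells was no longer called (adjusted p = 0.349).

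**Figure D2:**
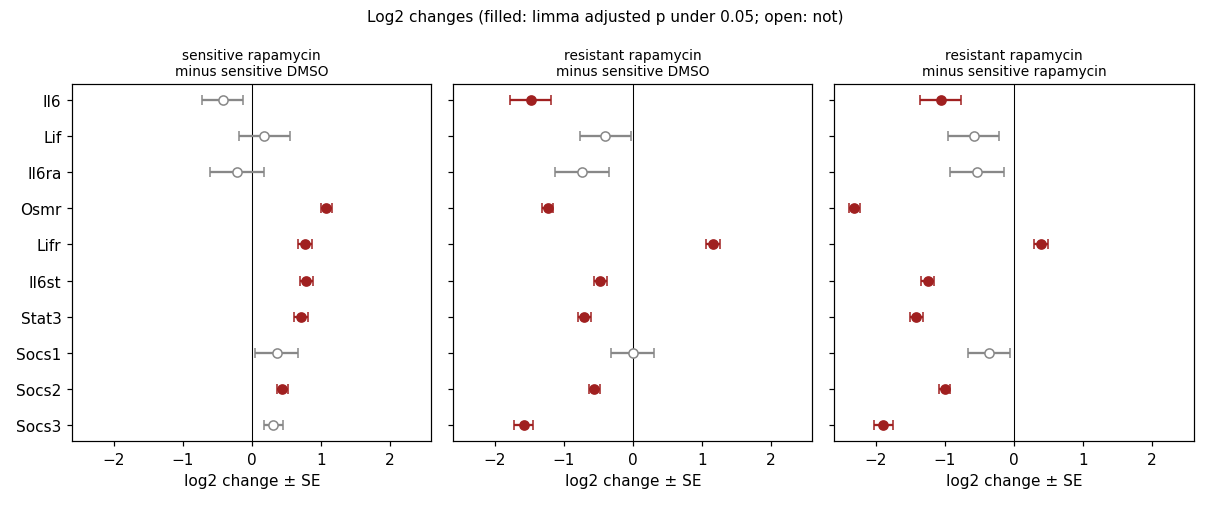
Log2 change ± SE (horizontal axis) of the brightest probe set of each of the 10 genes in the 3 comparisons; filled points passed an adjusted p under 0.05 in the limma fit and open points did not. The 5 filled points in the first panel lie right of 0, and in the other panels Lifr is the single filled point on the right, against 6 on the left.

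Of the inhibitors, Socs3, the feedback gene of STAT3, gave 488, 603 and 702 in DMSO cells, 654, 741 and 825 with rapamycin and 211, 156 and 199 in the resistant line. The sensitive groups overlapped and the resistant arrays were far below both. The resistant line differed by -1.58 ± 0.14 from DMSO cells, 2.99-fold (limma adjusted p = 3.38e-08), and by -1.89 ± 0.14 from sensitive cells with rapamycin, 3.71-fold (adjusted p = 1.67e-09). All 3 Socs3 probe sets were called lower in both comparisons, at -0.99 to -1.58 and -1.43 to -1.89. With rapamycin in sensitive cells Socs3 gave 0.31 ± 0.14 and was not called (adjusted p = 0.0921). It was called without the third DMSO array (0.43, adjusted p = 0.022) and when its probe sets were averaged (0.29, adjusted p = 0.0278), and 1 of its 3 probe sets, 1456212_x_at, was called higher at 0.44 ± 0.11. The suffix x marks probe sets with probes that may bind other transcripts; 1416576_at has no such suffix and gave 0.13 ± 0.12 with rapamycin (adjusted p over all probe sets = 0.477).

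Socs2 gave 1152, 1133 and 986 in DMSO cells, 1422, 1485 and 1539 with rapamycin and 708, 735 and 755 in the resistant line, with no overlap. It rose by 0.44 ± 0.08 with rapamycin (limma adjusted p = 0.000276), and the resistant line differed by -0.56 ± 0.08 from DMSO cells (adjusted p = 1.11e-05) and was 2.00-fold below sensitive cells with rapamycin (adjusted p = 4.94e-09). The next probe set in brightness, 1418507_s_at, followed it, with 0.60, -0.23 and -0.84, each called. The dim probe set 1446085_at rose with rapamycin, by 1.29 ± 0.24, and was higher in the resistant line than in DMSO cells, by 0.81 ± 0.24 (adjusted p over all probe sets = 0.0111). When the probe sets were averaged, the difference between resistant and DMSO cells was -0.08 (adjusted p = 0.627), and that between the rapamycin groups -0.63. Of the other 3 probe sets, 1438470_at was called in the last comparison, at -0.61 ± 0.22, 1442586_at in none, and 1441476_at was below the filter.

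Socs1, an inhibitor of JAK kinases best known from interferon signalling, was dim, at 61.0, 29.8 and 80.0 in DMSO cells, 67.0, 73.1 and 81.6 with rapamycin and 55.8, 44.4 and 62.6 in the resistant line. The DMSO arrays overlapped both other groups. It was called in no comparison (limma adjusted p = 0.397, 0.995 and 0.345) and gave 0.36 ± 0.31 with rapamycin. Without the second DMSO array, at 29.8, that change was 0.06 (adjusted p = 0.899), and without the third, at 80.0, it was 0.59 (adjusted p = 0.121).

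Of the 29 probe sets 27 passed the filter. With rapamycin in sensitive cells 13 of the 27 were called higher and 0 lower (0 also at an unadjusted p under 0.05), where 28.0% of 27022 probe sets were called in either direction. Against DMSO cells 5 were higher and 13 lower in the resistant line (43.7% of all probe sets were called), and 3 were higher and 16 lower than in sensitive cells with rapamycin (47.7%). The 5 higher ones against DMSO cells were the 3 of Lifr and 1 each of Il6st and Socs2. Probe sets of 1 gene read different parts of its transcripts, and which transcript forms they bind was not analysed here.

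**Figure D3:**
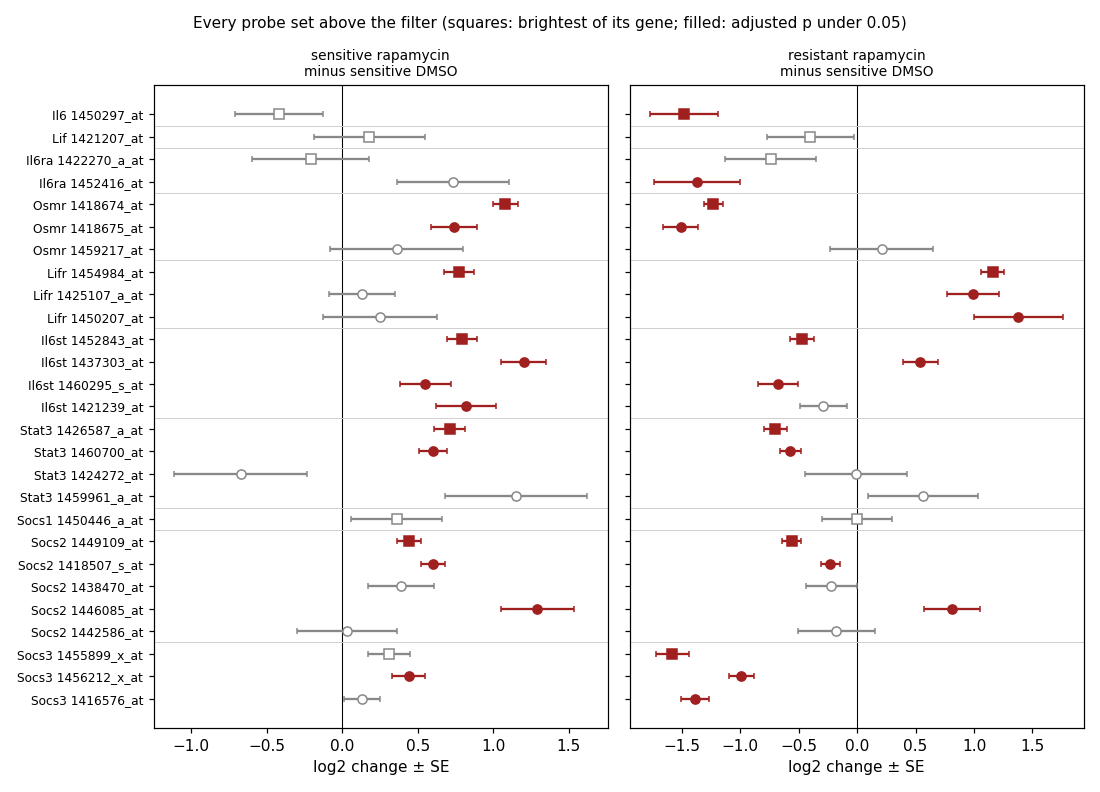
Log2 change ± SE (horizontal axis) of each of the 27 probe sets above the filter, grouped by gene, with rapamycin in sensitive cells (left) and in the resistant line against DMSO cells (right); squares are the brightest of a gene and filled points passed an adjusted p under 0.05. The 3 Lifr points are on the right and the 3 Socs3 points on the left in the right panel, while Il6st and Socs2 have filled points on both sides.

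The kinases and other STATs that work with these receptors were measured as context, from a list of 10 genes of which 8 were tested. With rapamycin 6 of 8 rose and 0 fell, 0 also at an unadjusted p under 0.05 (5 rose with the arrays centred on the 75th percentile), and the list's median log2 change was 0.54. Among all genes tested, 20.4% were called higher and 15.2% lower with rapamycin. Jak1, which gp130 uses most, rose from 1642 ± 73.9 (SD, n = 3) to 2257 ± 156, by 0.45 ± 0.08 (limma adjusted p = 0.00017). Jak2 rose by 0.63 ± 0.13, Stat5a by 0.70 ± 0.19 and Stat2, a factor of interferon signalling, by 0.84 ± 0.19. Against DMSO cells 4 of 8 were lower in the resistant line and 0 higher (0 at an unadjusted p under 0.05). Of all genes, 25.8% were called lower and 25.9% higher there. The list's median was -0.37, with Jak1 at -0.38 ± 0.08, Jak2 at -0.62 ± 0.13, Stat6 at -0.61 ± 0.08 and Stat2 at -2.44 ± 0.19. Against sensitive cells with rapamycin 6 of 8 were lower, where 30.1% of all genes were. Tyk2, another kinase of the family's receptors, gave 0.00 ± 0.15, -0.36 ± 0.15 and -0.36 ± 0.15 (adjusted p = 0.998, 0.0562 and 0.0516); several alternatives, such as averaging its probe sets, called both resistant differences (adjusted p = 0.0294 and 0.0257).

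Other cytokines and receptors of the family made a list of 12 genes, of which 8 had a probe set with 1 gene symbol and 5 were tested. With rapamycin 0 of the 5 were called (0 at an unadjusted p under 0.05), where 35.6% of all genes were, though without the third DMSO array Ctf1 was called (0.40, limma adjusted p = 0.00615). The call of Ctf1 (cardiotrophin 1) as higher in the resistant line than in DMSO cells, at 0.37 ± 0.13 (adjusted p = 0.0187), ended without the first DMSO array (0.29, adjusted p = 0.0836). Clcf1, a ligand of the ciliary neurotrophic factor receptor, was lower in the resistant line, from 337 ± 49.0 in DMSO cells to 184 ± 37.7 (log2 change -0.83 ± 0.15, limma adjusted p = 0.000186). Of 17 tested inhibitors, phosphatases and receptor-shedding proteases, 3 rose and 1 fell with rapamycin, 23.5% of the list beside 35.6% of all genes. Centring on the 75th percentile gave 2 and 2. Adam10 and Adam17, the proteases that release IL-6 receptor chains from the cell surface, rose by 0.52 ± 0.08 and 0.38 ± 0.10. The resistant line had 5 higher and 9 lower than DMSO cells, against 1 and 6 when probe sets of a gene were averaged. In this comparison 25.9% of all genes were called higher and 25.8% lower. Pias3, an inhibitor of STAT3, was lower by a log2 change of -0.63 ± 0.11, and Cish, a SOCS relative induced by STAT5, by -0.57 ± 0.15 (adjusted p = 0.000135 and 0.00417). Socs6 had the largest change, -0.81 ± 0.11. The 5 higher genes were Cbl (0.56 ± 0.17), Socs7 (0.48 ± 0.09), Adam17 (0.26 ± 0.10), Adam10 (0.22 ± 0.08) and Ptpn11 (0.20 ± 0.07). Averaging probe sets ended the calls of Cbl, Adam17 and Adam10 (limma adjusted p = 0.0667, 0.429 and 0.206). With rapamycin in sensitive cells Cish gave 0.17 ± 0.15 (adjusted p = 0.411).

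Growth hormone signalling, the main known target of SOCS2, was read from 6 tested genes besides Socs2 itself. Ghr, the growth hormone receptor, followed the order of Socs2, at 1519 ± 147 (SD, n = 3) in DMSO cells, 2336 ± 222 with rapamycin and 693 ± 4.21 in the resistant line. Its log2 changes were 0.62 ± 0.09, -1.11 ± 0.09 and -1.73 ± 0.09 (limma adjusted p = 2.18e-05, 7.46e-09 and 1.01e-11). Rapamycin raised 2 of the 6, Ghr and Stat5a, so that 33.3% were called, where 35.6% of all genes were called in either direction. Against DMSO cells 1 was higher in the resistant line and 2 were lower, 3 of 6 genes, where 51.8% of all genes were called. The higher gene was Igf1, a growth factor induced by growth hormone (0.84 ± 0.27, adjusted p = 0.014). Its call ended without the second resistant array (0.76, adjusted p = 0.0628) and when its probe sets were averaged (0.41, adjusted p = 0.163).

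Genes of the cytokine and NF-kappaB pathways that control Il6 and Lif, inducers and inhibitors alike, were mostly lower in the resistant line. Of 14 tested, 12 were lower than in DMSO cells and 0 higher (0 higher at an unadjusted p under 0.05, and 10 lower without the third DMSO array), with a median log2 change of -0.88. In this comparison 25.8% of all genes were called lower and 25.9% higher. Il1r1, the interleukin-1 receptor, gave 511 ± 80.4 (SD, n = 3) in DMSO cells, 824 ± 60.2 with rapamycin and 114 ± 38.1 in the resistant line, with log2 changes of 0.68 ± 0.16 with the drug and -2.05 ± 0.16 for the resistant line against DMSO cells (limma adjusted p = 0.00312 and 1.09e-08). Tlr3 changed by -1.99 ± 0.19, Zfp36, which destabilises cytokine RNAs, by -1.77 ± 0.16 and Tlr2 by -1.33 ± 0.11 against DMSO cells. Besides Zfp36, the lower genes held the inhibitors Nfkbia (-0.51 ± 0.07), which retains NF-kappaB in the cytoplasm, and Zc3h12a (-1.12 ± 0.41), an RNase that degrades Il6 RNA; these were named after their values were seen. With rapamycin in sensitive cells 6 of the 14 rose and 0 fell (0 at an unadjusted p under 0.05), against 4 and 0 with the arrays centred on the 75th percentile and 5 and 1 without the third DMSO array. Calls covered 42.9% of the list, beside 35.6% of all genes, of which 20.4% were higher and 15.2% lower.

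Genes known to be induced through STAT3 moved both ways with rapamycin in sensitive cells. Of 26 tested besides the members, 7 rose and 6 fell (9 and 6 without the third DMSO array). Of all genes, 20.4% were called higher and 15.2% lower with rapamycin. The median of the list was 0.06, beside 0.03 for all genes. Cebpd, a classic acute-phase target, rose from 271 ± 15.3 (SD, n = 3) to 498 ± 28.6 (0.84 ± 0.14, limma adjusted p = 0.000102). The survival gene Birc5, which is also a mitotic gene, fell, with a log2 change of -2.65 ± 0.11, and Fos, an immediate early gene, at -2.13 ± 0.19. Against DMSO cells 18 of 26 were lower in the resistant line and 3 higher, with a median of -0.96, where 25.8% of all genes were lower and 25.9% higher. Timp1, an inhibitor of matrix proteases, changed by -3.63 ± 0.09, Fos by -2.58 ± 0.19, Il4ra by -1.97 ± 0.21 and Cebpd by -1.74 ± 0.14. The 3 higher genes were Myc (3.81 ± 0.13), Pim3 (0.92 ± 0.07) and Cxcl1 (0.48 ± 0.15). Many genes on this list also answer to other factors, such as NF-kappaB or serum response factor.

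**Figure D4:**
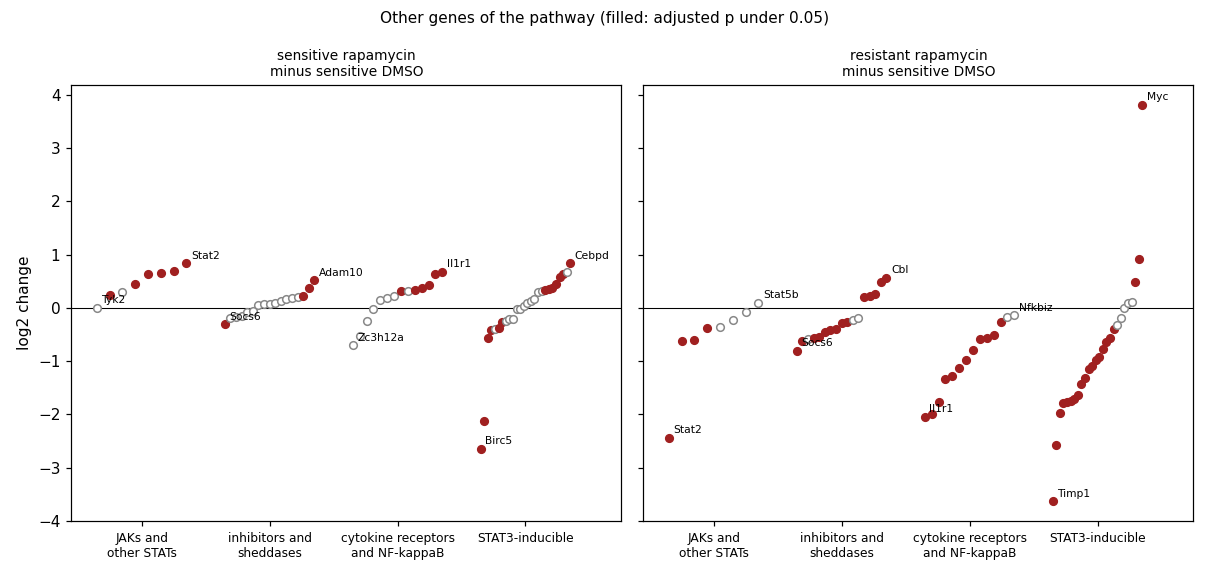
Log2 change (vertical axis) of the tested genes of 4 context lists, leaving out the 10 members and sorted by value within a list, with rapamycin in sensitive cells (left) and in the resistant line against DMSO cells (right); filled points passed an adjusted p under 0.05 in the limma fit, and the lowest and highest gene of a list are named. In the right panel 12 of 14 cytokine receptor and NF-kappaB genes and 18 of 26 STAT3-inducible genes are filled and below 0, and Myc stands at 3.81. Among all genes tested, 25.8% were called lower in that comparison.

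Genes whose log2 signals followed a member most closely over the 9 arrays were found among all tested genes by Pearson correlation, as a description. The arrays fall into 3 groups, which raises the values of members that differ between groups. For Osmr the closest genes were Mmp14, a membrane-bound matrix protease (r = 0.999), and Zbtb4. For Socs2 they were Zfand3 (0.998) and Zcchc24 (0.997), and for Il6st Pld3 (0.997) and C1ra (0.995). For Socs3 they were Sh3gl3 (0.996) and Hpcal1 (0.995), for Stat3 Magi3 (0.995) and Prkab2 (0.991), for Lifr Usp12 and Alg2 (0.987 and 0.986), and for Il6 Arl1 (0.984) and Pcyt1b (0.972). The dim members had lower values: Lif with Grin2d 0.951 and Cnksr3 0.948, Il6ra with Pcp2 0.970 and Grin2d 0.967, and Socs1 with Zfp119b 0.931 and Ttll6 0.929. Lif and Il6ra were called in no comparison, and the third DMSO array held the highest signal of each (129 and 261). How far that array set their correlations was not tested.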

How the data were processed

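RNA of 9 samples was measured on Affymetrix arrays. The deposited values are linear intensities, 1 per probe set and array, which the authors computed in GCOS (version 1.4), per the submitters' processing notes; how probes were summarised is not given in the sources used here. The array mean without the outer 2% of values at either end was 250.0 on every array. Titles of the samples gave group and replicate. Of 45101 probe sets, 64 were controls, 34945 had 1 gene symbol, 932 several and 9160 none. Values were kept on the authors' scale, since 75th percentiles differed by 0.17 (log2), under a limit of 0.2. Probe sets with a mean of log2(signal + 16) above the 40th percentile were kept, the brightest was used for each gene, and limma 3.58.1 (R 4.3.3) fitted the 3 groups together by lmFit and eBayes, letting the prior variance follow the mean level. A second limma fit held all 27022 probe sets above the filter and gave the values of the other probe sets. Errors of log2 changes are standard errors, from 3 arrays per group; the number of arrays limits the precision. The fit was tested on simulated arrays. Members and gene lists were chosen with earlier results of these data known. Named from each list were up to 4 called genes of largest change, with Jak1, Jak2, Tyk2 and Cish whatever their result, and the 2 genes most like each member. Hybridization batches were not used here. Alternatives were other pseudocounts, filters, scalings, probe set rules, eBayes without trend, the replicate number as a block, fits of 2 groups and leaving out each array.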

Additional observations from a re-analysis of the deposited data

How the results depend on the processing

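Of 561 values of the 10 genes under the alternatives, 552 kept their side of the threshold, 3 lost a call and 6 gained one; no called value of a member changed sign, and 8 uncalled values did. The 3 lost calls were Il6st, Stat3 and Socs2 in the resistant line against DMSO cells when probe sets of a gene were averaged, where dim or opposed probe sets enter the mean. The number of members called was 5 to 6, 5 to 8 and 6 to 8 of 10 in the 3 comparisons over all alternatives run, and 5 to 6, 7 to 8 and 7 when single arrays were left out. The filter at the 60th percentile removed Il6, Lif and Socs1. Socs6, an inhibitor outside the 10 genes, changed by -0.31 with rapamycin in sensitive cells and by 0.00 when its probe sets were averaged (adjusted p = 0.999); the cause was not tested. Same-numbered arrays of different groups did not deviate together (correlations of deviations -0.08 to 0.02), so the numbers were not taken as pairs; with the replicate block the members called numbered 5, 7 and 7, as without it, and all genes called 4382, 6448 and 7100 in place of 4523, 6581 and 7186; of the 17 tested inhibitors 2 rose and 0 fell with rapamycin under the block, in place of 3 and 1. Counts of member probe sets and of the context lists under alternatives were added after seeing the data. The dim signals of Lif, Il6ra and Socs1 limit what could be called.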

Other observations

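Osmr and Lifr are neighbours on mouse chromosome 15 in the RefSeq gene order, with Rictor, a subunit of mTOR complex 2, next to Osmr on its other side. These values were looked up after the changes of Osmr and Lifr had been seen. Rictor gave signals of 252 ± 31.2 (SD, n = 3) in DMSO cells, 438 ± 64.8 in sensitive cells with rapamycin and 787 ± 27.5 in the resistant line, with log2 changes of 0.76 ± 0.12 with the drug and 1.59 ± 0.12 in the resistant line against DMSO cells (limma adjusted p = 5.89e-05 and 3.8e-09). All 3 neighbours were higher with rapamycin in sensitive cells. In the resistant line Rictor and Lifr, on either side, were higher than in DMSO cells, while Osmr between them was lower (-1.23 ± 0.08, adjusted p = 1.19e-09). Farther along on the Lifr side, Wdr70 was also higher in the resistant line (0.64 ± 0.09, adjusted p = 1.63e-05), and Egflam and Gdnf were not tested. On the Rictor side, Fyb and C9 were dim and were not called in the resistant line against DMSO cells (0.14 ± 0.52 and 0.35 ± 0.42, adjusted p = 0.847 and 0.52). With rapamycin in sensitive cells Wdr70, Fyb and C9 were not called (-0.12 ± 0.09, 0.21 ± 0.52 and 0.68 ± 0.42, limma adjusted p = 0.346, 0.791 and 0.236).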
